A study of Mus musculus with 4 samples.

Results

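The central pair apparatus is the core of the motile axoneme, the microtubule skeleton of beating cilia and sperm tails. Its single microtubules, named C1 and C2, run along the axis inside a ring of doublet microtubules, and their projections meet the radial spokes, which pass signals on to the dynein arms. Primary cilia, the sensory cilia of most vertebrate cells, do not carry a central pair, and the cilium of the photoreceptor lacks it as well. Transcription of motile axoneme genes is known to depend on the forkhead factor Foxj1 and on RFX factors.

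The genes described here are 6 known central pair genes, Hydin, Spag6l, Spag16, Spag17, Spef1 and Spef2, taken by symbol. The choice was made with earlier results of these data known. Of the 6 genes, 5 were in the deposited table of 18471 genes, and all 5 could be tested. Spag17, which encodes a C1 projection protein, was not listed in the table and was not analysed here. The table holds genes with a sum of at least 16 counts over the libraries.

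RNA was sequenced from the retinas of individual mouse embryos at embryonic day 19. The wild-type group had 2 libraries. The group labelled Foxn3KO also had 2 libraries, from embryos with the genotype Foxn3-/-, in which exon 3 of the forkhead gene Foxn3 is deleted (strain C57BL/6NJ-Foxn3em1(IMPC)Bay/Mmnc). The labels name no promoter or Cre line that would restrict the deletion to the retina. Libraries were treated as coming from different embryos, each counted as 1 replicate, although the sample titles give no embryo identifier. The title of the study names primary cilia of the developing retina as its subject.

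Total counts ranged from 22543531 to 29360129 per library. The targeted gene could not check the labels. Gene-level counts of Foxn3 were 2421 and 2712 in wild-type against 4181 and 3219 in Foxn3KO, higher where the exon is deleted. The log2 fold change of Foxn3 was 0.54, a called rise, and 0.53 to 0.56 without 1 library. These counts do not resolve exon 3. Every direction below rests on the labels. All 12 retinal marker genes fixed for the tissue were listed, with summed levels of 3544 and 3715 CPM (counts scaled to library size) in wild-type and 3660 and 3720 CPM in Foxn3KO. Of these markers, 4 of 12 were called, beside 21.9% of all tested genes called in either direction. Elavl4 (log2 fold change 0.21), Six3 (0.18) and Six6 (0.14) were higher in Foxn3KO and Isl1 (-0.23) was lower. Wild-type replicate 1 stood apart by its 83073 counts of Xist against 9 to 19 in the other libraries. The fold change of each central pair gene is therefore also given without that library.

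Every listed central pair gene was higher in both Foxn3KO libraries than in both wild-type libraries, and all 5 passed the test. The test was the quasi-likelihood test of edgeR with Benjamini-Hochberg adjustment over 17300 genes, called at an adjusted p under 0.05. Over all tested genes, 12.3% were called higher in Foxn3KO and 21.9% were called in either direction. Both Foxn3KO libraries lay above both wild-type libraries for 29.9% of genes. The rises were unequal: Spef2 rose 38.6-fold, Hydin 13.99-fold, Spag6l 7.25-fold, Spag16 5.21-fold and Spef1 1.42-fold. In bulk tissue, more cells that express a gene and more RNA per cell cannot be told apart.

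**Figure D1:**
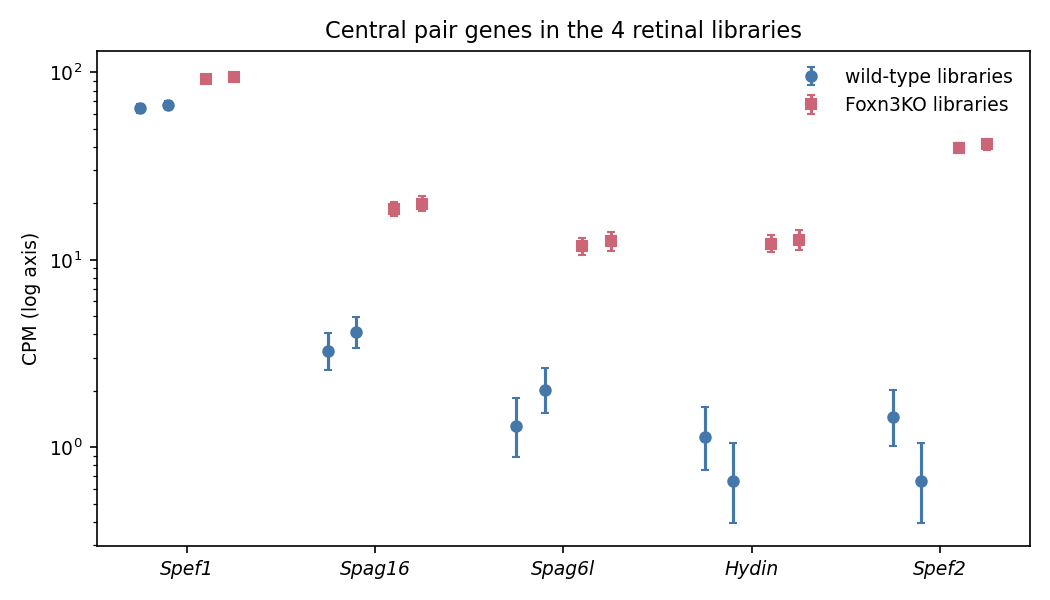
Level of each listed central pair gene in each library, in CPM on a log axis; circles are wild-type and squares Foxn3KO libraries, and bars are exact 95% Poisson intervals of the count, which cover counting error only. Both squares lie above both circles for all 5 genes, with the narrowest gap on this axis for Spef1 (67.2 against 92.3 CPM).

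Spef2 (ENSMUSG00000072663), which encodes a protein of a C1 projection and is needed for sperm tails, was low in the wild-type retina. It had 36 and 18 counts in the wild-type libraries and 1155 and 924 in the Foxn3KO libraries. These counts correspond to 1.45 and 0.663 CPM in wild-type and 39.7 and 41.3 CPM in Foxn3KO. The 95% Poisson intervals of the wild-type libraries, 1.02 to 2.01 and 0.393 to 1.05 CPM, barely overlapped, while the Foxn3KO libraries lay close together. The mean level was 1.06 ± 0.558 CPM in wild-type and 40.5 ± 1.13 CPM in Foxn3KO (SD, n = 2 each). The log2 fold change was 5.27 (SE 0.165, 95% interval 4.92 to 5.62, edgeR adjusted p = 6.15e-14). By fold it ranked 19 of the 17300 tested genes. Because the fold rests on few wild-type counts, it depends on the wild-type library: leaving out replicate 1 of that group gave a log2 fold change of 5.92, and leaving out replicate 2 gave 4.79.

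Hydin (ENSMUSG00000059854), a very large protein of a C2 projection whose loss causes hydrocephalus in mice, had the next highest fold. It had 28 and 18 counts in wild-type (1.13 and 0.663 CPM) and 355 and 286 counts in Foxn3KO (12.2 and 12.8 CPM). The groups did not overlap, and both wild-type libraries were close to 1 CPM. Mean levels were 0.896 ± 0.330 CPM and 12.5 ± 0.410 CPM (SD, n = 2 each). The log2 fold change was 3.81 (SE 0.197, 95% interval 3.39 to 4.22, edgeR adjusted p = 8.14e-11). Without wild-type replicate 1 the log2 fold change was 4.22.

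Spag6l (ENSMUSG00000022783) encodes an armadillo-repeat protein of the C1 microtubule, the mouse counterpart of the algal paralysed-flagella protein PF16. It had 32 and 55 counts in wild-type (1.29 and 2.02 CPM) and 343 and 281 in Foxn3KO (11.8 and 12.5 CPM). Here wild-type replicate 2 was the higher of the wild-type libraries, opposite to Hydin and Spef2. Mean levels were 1.66 ± 0.519 CPM and 12.2 ± 0.543 CPM (SD, n = 2 each). The log2 fold change was 2.86 (SE 0.179, 95% interval 2.48 to 3.24, edgeR adjusted p = 1.13e-09). Without wild-type replicate 1 it was 2.58. Its close relative Spag6 stayed at 7 to 9 counts in every library, below the filter on low counts; without that filter its log2 fold change was -0.08 (edgeR adjusted p = 0.950). Reads shared between these related genes may have been split or dropped by the counting, so both values are uncertain to that degree.

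Spag16 (ENSMUSG00000053153), a WD-repeat protein of the central pair and the counterpart of the algal protein PF20, was low but clearly counted in wild-type. It had 81 and 112 counts there (3.27 and 4.12 CPM) and 546 and 446 in Foxn3KO (18.8 and 19.9 CPM). Wild-type replicate 2 was again the higher one, and the groups were far apart. Mean levels were 3.69 ± 0.605 CPM and 19.3 ± 0.823 CPM (SD, n = 2 each). The log2 fold change was 2.38 (SE 0.127, 95% interval 2.11 to 2.65, edgeR adjusted p = 1.23e-10). Without wild-type replicate 1 it was 2.22.

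Spef1 (ENSMUSG00000027329) differed from the other 4 in its starting level. It encodes a calponin-homology protein that binds and bundles microtubules, is required for the central pair, and is also found on microtubule bundles outside cilia. It had 1592 and 1825 counts in wild-type (64.2 and 67.2 CPM) and 2688 and 2124 in Foxn3KO (92.3 and 94.8 CPM). Mean levels were 65.7 ± 2.10 CPM and 93.6 ± 1.79 CPM (SD, n = 2 each). The log2 fold change was 0.51 (SE 0.052, 95% interval 0.40 to 0.62, edgeR adjusted p = 8.19e-07). Without wild-type replicate 1 it was 0.48. By fold, Spef1 ranked 1471 of 17300 tested genes, while Hydin ranked 63, Spag6l 111 and Spag16 151.

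**Figure D2:**
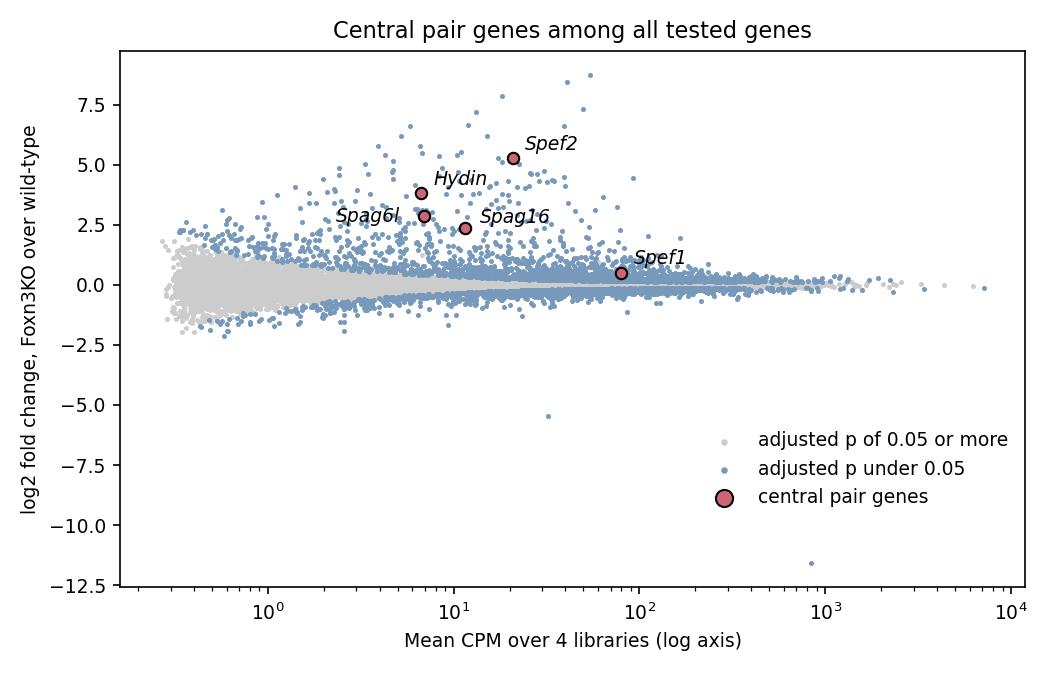
Log2 fold change of each tested gene (Foxn3KO over wild-type) against its mean level in CPM on a log axis; blue points have an edgeR adjusted p under 0.05, and the 5 central pair genes are circled. Spef2, Hydin, Spag6l and Spag16 lie above a log2 fold change of 2, and Spef1 lies at 0.51 at the highest mean level of the 5.

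The 95% intervals of the log2 fold changes of Spag6l and Spag16 overlapped each other, and no other pair among the 5 genes had overlapping intervals; the differences between genes were not tested themselves. A rise of more than 4-fold was called for 4 of the 5 genes, against 1.2% of all tested genes. The filter on low counts did not create these calls, since each of the 5 genes had at least 18 counts in every library. In the authors' deposited table the log2 fold changes of the same genes were 5.19 for Spef2, 3.77 for Hydin, 2.82 for Spag6l, 2.36 for Spag16 and 0.50 for Spef1, with adjusted p-values of at most 3.34e-11.

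Levels of different genes were compared per length, with the FPKM values that the authors deposited, which divide fragments by gene length and library size. In wild-type, Spef1 was at 23.8 ± 0.793 FPKM (SD, n = 2). The other genes followed far below it, Spag16 at 0.544 ± 0.0898, Spag6l at 0.362 ± 0.114, Spef2 at 0.106 ± 0.0559 and Hydin at 0.0495 ± 0.0182 FPKM. Spag16 and Spag6l differed by less than the sum of their SDs, as did Spef2 and Hydin. In Foxn3KO the order was Spef1 (34.0 ± 0.653 FPKM), Spef2 (4.07 ± 0.114), Spag16 (2.85 ± 0.122), Spag6l (2.66 ± 0.119) and Hydin (0.690 ± 0.0227), where again Spag16 and Spag6l differed by less than the sum of their SDs. Spef2 thus moved from below Spag16 and Spag6l to above both.

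The makeup of the group changed with these unequal rises. Spef1 made up 96.0% and 95.5% of the summed FPKM of the 5 genes in the wild-type libraries and 77.0% and 76.6% in the Foxn3KO libraries. Whether reads of genes that overlap Spef1 add to its level, here and in the comparisons below, was not tested. The summed level of the other 4 went from 0.970 and 1.15 FPKM to 10.003 and 10.54 FPKM. Although its fold was the smallest, Spef1 had the largest difference of the 5 in FPKM, 10.2, followed by Spef2 with 3.96. The ratio of Spag6l to Spag16 was 0.586 and 0.729 in wild-type and 0.932 and 0.935 in Foxn3KO. The ratio of Spef2 to Spag16 was 0.303 and 0.110 in wild-type and 1.44 and 1.41 in Foxn3KO. In each of these ratios the Foxn3KO libraries nearly coincided, and the wild-type libraries, which hold few counts, were further apart.

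**Figure D3:**
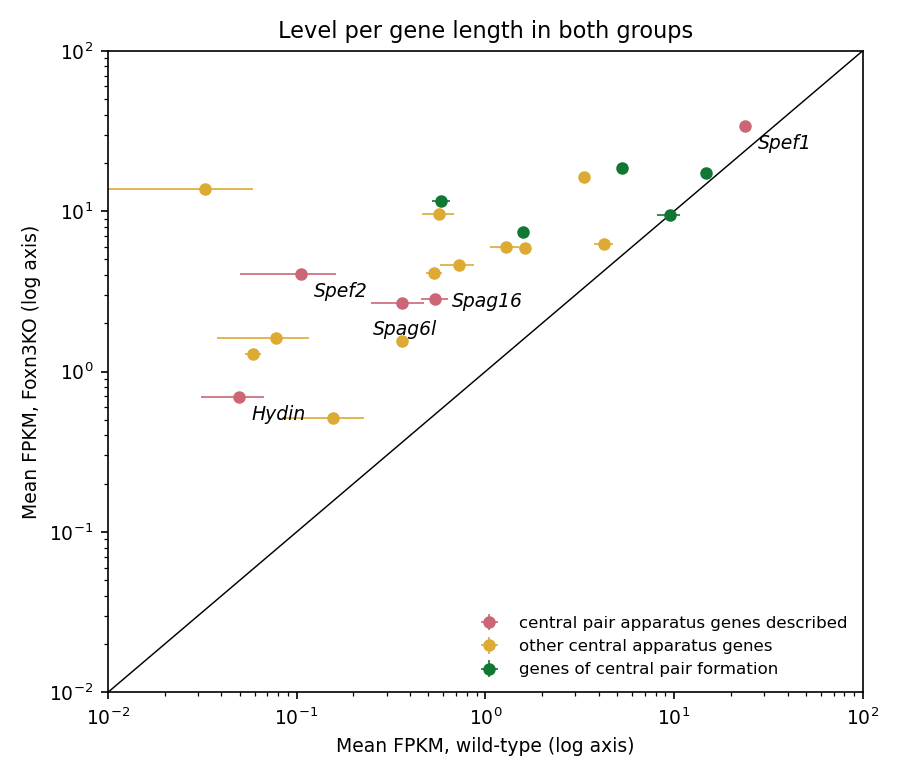
Mean FPKM in wild-type against mean FPKM in Foxn3KO, both on log axes, for the central pair genes described (red, named), other central apparatus genes (yellow) and genes of central pair formation (green); bars are SDs (n = 2 each) and the line marks equal levels. Spef1 lies close to the line at 23.8 against 34.0 FPKM, whereas Spef2, Hydin, Spag6l and Spag16 lie well above it.

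The promoters of the 5 genes were examined because RFX factors and the forkhead factor Foxj1 are known to act on motile cilia genes. Whether these factors act on the 5 genes in this retina was not tested. Sequences are from RefSeq (GRCm38.p6), 5′ to 3′ along the gene's strand. Each listed gene matched 1 promoter of 300 bases, from 250 before to 50 after the gene start, where base 1 is the first base of the gene. Capitals mark the letters GTTNCC on either strand (read as GGNAAC on the opposite strand), a half-site of the X-box that RFX factors bind. The matches and 12 bases on either side, within the promoter, are shown so that their spacing and direction can be compared. They are from Spef2 (chr15:9748843-9748872, minus strand, bases -4 to 26), Hydin (chr8:110266839-110266991, plus strand, bases -138 to 15), Spag6l (chr16:16829314-16829341, minus strand, bases 23 to 50), Spag16 (chr1:69826839-69826884, plus strand, bases -131 to -86) and Spef1 (chr2:131174850-131174915, minus strand, bases -105 to -40).
Spef2: ccttagcaactgGTTGCCctgggcgacggg
Hydin: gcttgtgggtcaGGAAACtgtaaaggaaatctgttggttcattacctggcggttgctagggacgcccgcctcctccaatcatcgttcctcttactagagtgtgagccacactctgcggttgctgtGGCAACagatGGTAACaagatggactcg
Spag6l: cggttgctgtcgGTTGCCctggagacgc
Spag16: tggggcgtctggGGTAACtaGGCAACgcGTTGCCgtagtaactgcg
Spef1: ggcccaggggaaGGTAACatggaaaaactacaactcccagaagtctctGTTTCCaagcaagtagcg

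All 5 promoters held GTTNCC, as did 45.3% of the 32851 promoters in the table. Spag16 and Hydin had 3 matches each, Spef1 had 2, and Spef2 and Spag6l had 1 each. In Spag16 the 3 matches stood close together, from base -119 to base -98, and on both strands. The matches of Spef2 (bases 9 to 14) and Spag6l (bases 35 to 40) lay after the start, so with only the 250 bases before the start 3 of 5 promoters matched, against 39.4% of all. The narrower form GTTGCC, chosen after the sequences were seen, was in the promoters of Spef2, Hydin, Spag6l and Spag16 but not in that of Spef1, and in 12.5% of all promoters. In the 250 bases before the start it was in 2 of 5, those of Spag16 and Hydin, against 10.4% of all. The full X-box was searched in a single strict form of 14 letters, with half-sites of the wider form facing each other across 2 letters. This strict form was in none of the 5 and in 0.451% of all promoters. An X-box with other letters or another spacing was not searched for, so its presence in the 5 promoters is not excluded. The forkhead letters TGTTTAC were in none of the 5 promoters (3.65% of all), and TGTTTNC was in those of Spag16 and Spef1 (20.5% of all), where in Spef1 it overlaps a GTTNCC match. Such matches describe the letters only.

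The known regulators of motile cilia genes were measured in the same libraries. Foxj1, the forkhead activator of motile ciliogenesis, went from 191 and 226 counts in wild-type to 5154 and 3914 in Foxn3KO, a log2 fold change of 4.45 (SE 0.061, edgeR adjusted p = 1.61e-18). Of the 10 regulators fixed for comparison, 7 were listed and tested; 5 were called higher and 0 lower, with a median log2 fold change of 0.46. Besides Foxj1, these were Ccno, a factor of centriole amplification in multiciliated cells (3.14), Rfx2 (1.41), Rfx1 (0.46) and Rfx3 (0.40). Myb, which acts in both multiciliated cells and dividing progenitors, had a log2 fold change of -0.03 (edgeR adjusted p = 0.602), and Trp73 had -0.28 (edgeR adjusted p = 0.628) at 20 to 52 counts per library. Rfx4, Gmnc and Mcidas, the latter a pair of early switches of the multiciliated fate, were not listed in the table and were not analysed here.

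The other tested genes of the central apparatus moved the same way. Of 13 further central apparatus genes, all were listed, 12 were tested, and 12 were called higher. Their median log2 fold change was 2.48 beside -0.00470 over all tested genes. The gene not tested was Spag6, at 7 to 9 counts per library. Its groups overlapped, and without the low-count filter its log2 fold change was -0.08. The highest was Cfap65, a large C2 protein, with 10 and 3 counts in wild-type and 3107 and 2459 in Foxn3KO. Its log2 fold change of 8.73 came to 9.88 when wild-type replicate 1 was left out and to 8.05 when wild-type replicate 2 was. Cfap221 (4.42) and Cfap54 (4.36), which build a C1 projection together with Cfap46 (2.66) and Cfap74 (1.85), were all called. Without wild-type replicate 2 the log2 fold change was 5.02 for Cfap54 and 2.29 for Cfap47, and without wild-type replicate 1 it was 3.94 and 1.32. Kif9, a kinesin of the C2 microtubule, had mean levels of 2.47 ± 0.467 CPM in wild-type and 41.2 ± 0.170 CPM in Foxn3KO (SD, n = 2 each), and its log2 fold change was 4.05. Cfap47 (1.71), Cfap69 (2.30), Cfap70 (2.10), Lrguk (2.94) and Mycbpap (2.22) rose as well. Mycbp, a small protein that also binds Myc outside cilia, rose least, with a log2 fold change of 0.56 (edgeR adjusted p = 0.000583). Cfap65 and Cfap221 had under 10 counts in at least 1 wild-type library. With at least 10 counts required in every library, 10 further central apparatus genes remained and 10 were called.

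Genes needed to form the central pair, rather than to build its projections, were more mixed. Of 5 such genes, 4 were called higher. Kif27, a kinesin-like partner of the kinase Stk36, had a log2 fold change of 4.30, Ulk4, a pseudokinase, 2.23 and Stk36 1.80. Wdr47, which acts on microtubules in neurons too, had 0.22 (edgeR adjusted p = 0.00844), a call that was lost without Foxn3KO replicate 1 (0.16, edgeR adjusted p = 0.232). Camsap3, a protein of microtubule minus ends, was at 52.5 and 64.0 CPM in wild-type and 60.1 and 55.5 CPM in Foxn3KO, with a log2 fold change of -0.01 (95% interval -0.17 to 0.15, edgeR adjusted p = 0.947). The groups overlapped for Camsap3.

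**Figure D4:**
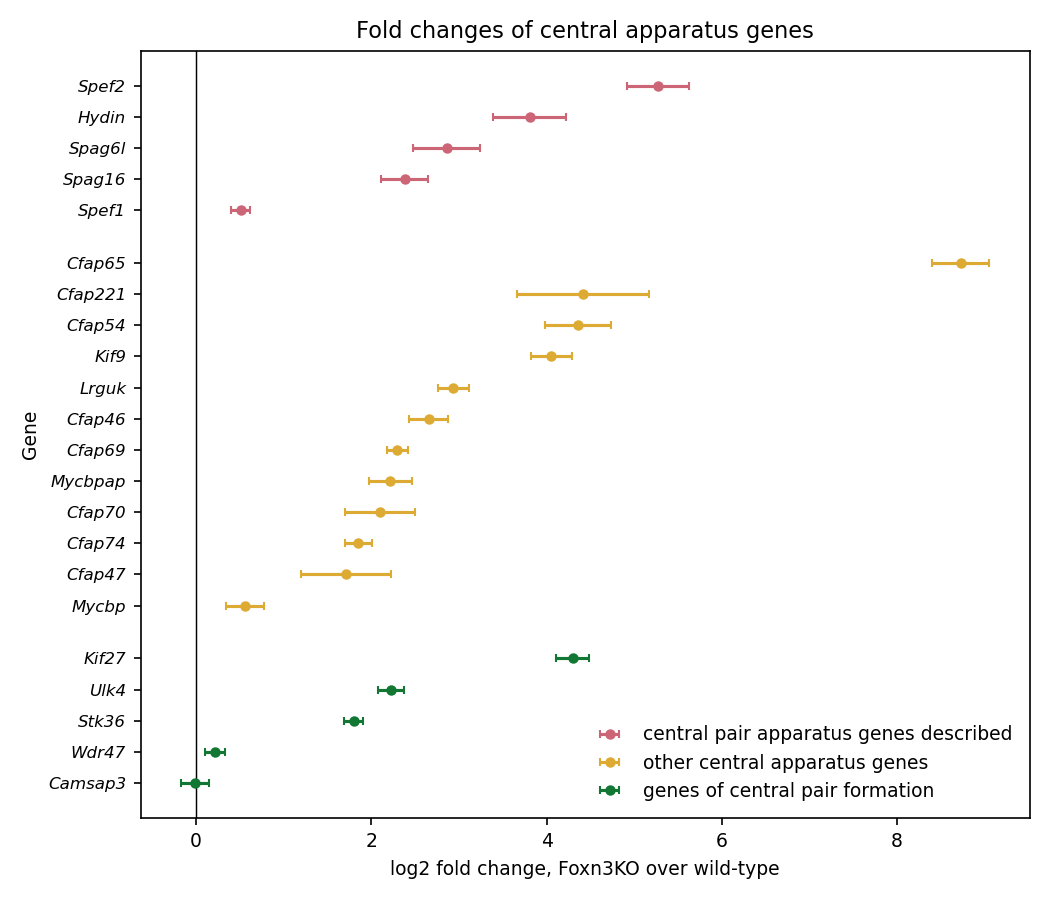
Log2 fold change (Foxn3KO over wild-type) with its 95% interval from edgeR for the central pair genes described (red), other central apparatus genes (yellow) and genes of central pair formation (green); the vertical line marks no change. Cfap65 is highest at 8.73, Spef1, Mycbp and Wdr47 form the low end of the called genes, and the interval of Camsap3 includes 0.

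Across the 17 tested central apparatus genes, those with a higher wild-type FPKM had a smaller log2 fold change (Spearman's rho -0.75 across genes), whereas rho was -0.0159 over all 17300 tested genes. Genes are not independent replicates, and both measures use the same wild-type libraries, so this is a description only. Spef1 was the extreme of this order, with the highest wild-type level and the lowest fold.

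The structures next to the central pair in the axoneme gave similar counts. Radial spoke genes had 11 of 16 listed and tested and 11 called higher, with a median log2 fold change of 1.86; Cfap206 (4.11), Rsph1 (2.41) and Cfap91 (5.38) had the smallest p-values. The nexin-dynein regulatory complex with its ruler proteins had 8 of 9 tested and 8 called higher, with a median of 2.73; the smallest p-values were those of Ccdc40 (3.11), Ccdc39 (2.03) and Drc1 (5.52). Of 15 dynein heavy chains, 11 were tested and 8 called higher, with a median of 1.62; Dnah10 (7.32), Dnah9 (4.11) and Dnah11 (2.51) had the smallest p-values among them. The median of the 5 central pair genes was 2.86. No difference between these groups of genes was tested.

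Markers of other tissues were read beside these rises. Over all 17300 tested genes, 2123 were called higher in Foxn3KO and 1672 lower. Of 10 airway and nasal epithelium markers none was listed in the table, and of 8 germ cell markers of the testis only Ddx4 was, at 27 to 52 counts per library and without a call (edgeR adjusted p = 0.413). Choroid plexus markers were listed for 7 of 9 genes, with summed levels of 11.6 and 14.8 CPM in wild-type and 15.5 and 15.0 CPM in Foxn3KO; 2 were called higher and 2 lower. Pigment epithelium markers were listed for 6 of 7 genes and summed to 76.7 and 99.2 CPM in wild-type and 61.3 and 62.7 CPM in Foxn3KO, with 3 called lower. Lens markers were listed for 6 of 7 genes and summed to 3.11 and 47.1 CPM in wild-type and 182 and 176 CPM in Foxn3KO, with all 6 called higher. Lens markers therefore moved with genotype, so lens content and genotype cannot be told apart in these libraries. The part of lens content in the central pair result was not tested. Within wild-type, Hydin and Spef2 (18 to 36 counts) were lower in replicate 2, the library with more lens markers. Spag6l, Spag16 and Spef1 were higher in it. Since this sets 1 library against 1 library, it cannot decide that part.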

How the data were processed

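Per the labels, RNA came from individual retinas (500 ng of total RNA per library) and libraries were made with a directional kit and adaptors carrying molecular identifiers. The authors deposited raw read counts (whole numbers) and FPKM values for each gene in each library; the genome build mm39 and DESeq2 are named in the submitters' processing notes. The aligner, the counting tool, the strand setting and the removal of duplicates are not given in the sources used here. The authors also deposited a mean signal per gene, log2 fold changes and p-values of their own comparison; the signal was not used.

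From the counts, a repeated identifier was dropped, leaving 18471 genes. The filterByExpr function kept 17300 genes. These were normalized by TMM and compared by the current quasi-likelihood test of edgeR (version 4.0.16, R 4.3.3), two-sided, with genotype as the only term and Benjamini-Hochberg adjustment. The procedure was also run on simulated counts. That run used a single fold size at the mean level of each gene, so it does not test the results above. CPM values use TMM-adjusted library sizes. A count of 3 corresponds to 0.103 to 0.134 CPM; intervals cover counting error only. Gene lists were described by counts and medians, without a set test. Genes were named by a fixed rule: the central pair genes, Foxn3, genes of the central apparatus, central pair formation and regulator lists, the 3 smallest p-values of each other axoneme list, the 5 genes with the most similar pattern, and neighbours. The markers Ddx4, Elavl4, Six3, Six6 and Isl1 and the library check Xist were named after their values were seen. Members and lists were chosen with earlier results of these data known. Neighbouring genes came from GENCODE M21 (GRCm38), used for names and order only. Alternatives were RLE and total count scaling, 2 other filters, DESeq2 1.42.0, limma-voom (limma 3.58.1), the earlier edgeR fit, a replicate term, and omission of single libraries. Figures were drawn with matplotlib 3.10.9.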

Additional observations from a re-analysis of the deposited data

How the results depend on the processing

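The 5 central pair genes kept their direction and their call under all 12 alternatives. The lowest and highest log2 fold changes without 1 library were 4.79 and 5.92 for Spef2, 3.46 and 4.22 for Hydin, 2.58 and 3.23 for Spag6l, 2.22 and 2.56 for Spag16, and 0.478 and 0.542 for Spef1. In these fits the lone library of a group is assumed to vary like the other group. Without 1 library, the count of called genes ranged from 2323 to 5068, and it was 2330 without Foxn3KO replicate 1 and 2323 without Foxn3KO replicate 2, against 3795 with all libraries; DESeq2 called 2433. The cause was not tested. List medians without 1 library ranged from 2.58 to 3.23 for the central pair genes, 2.44 to 2.58 for other central apparatus genes, 1.69 to 2.04 for radial spokes and 2.60 to 2.88 for the nexin-dynein regulatory complex. The median of other central apparatus genes was 2.46 under total count scaling, 2.30 without a low-count filter and 2.26 with at least 10 counts in every library, where the set of tested genes differs in the last 2. The count called higher was 7 in place of 8 for dynein heavy chains without wild-type replicate 2, without Foxn3KO replicate 2, under total count scaling, in DESeq2 and in limma-voom. It was 10 in place of 11 for radial spokes without Foxn3KO replicate 2, and 3 in place of 4 for central pair formation without Foxn3KO replicate 1. With at least 10 counts in every library, it was 7 in place of 8 for the nexin-dynein regulatory complex and 10 in place of 12 for other central apparatus genes. Sign changes were seen in values that passed no test with all libraries. Without 1 library the log2 fold changes ranged from -0.14 to 0.15 for Camsap3, -0.74 to 0.24 for Trp73, -0.27 to 0.31 for Vwc2l and -0.0187 to 0.81 for Ddx4, and limma-voom gave -0.011 for Vwc2l. For the other named genes, 586 alternative values kept direction and call, 2 gained a call (Fgd4 and Ikzf2) and 1 lost it (Wdr47).

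Replicate differences in both groups had a correlation of -0.00825 across 17300 genes. That value gave no sign of pairs by replicate number, but it cannot exclude them, since it rests on a single difference per group. Under the replicate block, 4222 genes passed, and the log2 fold changes were 5.27 for Spef2, 3.81 for Hydin, 2.87 for Spag6l, 2.39 for Spag16 and 0.51 for Spef1. Depth limits the folds of Spef2 and Hydin, which rest on 18 to 36 counts in wild-type.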

Other observations

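The genes around each central pair gene were read because the strand setting of the counts is not given. In GENCODE M21, no gene of the table overlapped Hydin, Spag6l, Spag16 or Spef2. The annotation of Spef1 overlaps Cenpb, a centromere protein gene on the same strand, and Cdc25b, a cell cycle phosphatase gene on the opposite strand. Cenpb had a log2 fold change of 0.07 (edgeR adjusted p = 0.275) and Cdc25b -0.03 (edgeR adjusted p = 0.689), against 0.51 for Spef1. The gene next to Spef1 on its other side, Adissp, had a log2 fold change of 0.49 (edgeR adjusted p = 1.35e-05), from 959 and 1066 counts in wild-type to 1526 and 1273 in Foxn3KO. Cmtr2, next to Hydin, had 0.44 (edgeR adjusted p = 0.000787), and Lmbrd2, next to Spef2, had a log2 fold change of -0.28 (edgeR adjusted p = 0.00164). The other nearest genes that could be tested, Vac14, Fgd4, Ikzf2, Vwc2l, Ap5s1 and Dnajc21, were not called, with log2 fold changes from -0.23 to 0.13. Without wild-type replicate 2, Fgd4 (-0.16) and Ikzf2 (-0.39) were called lower (edgeR adjusted p = 0.00329 and 0.00354). Cenpb was at 330 to 349 CPM over the libraries, well above Spef1 at 64.2 to 94.8 CPM. Whether reads of neighbours contribute to the level or the fold of Spef1 was not tested.

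The genes whose profile over the 4 libraries was nearest to the median profile of the central pair genes were Erich2, Cfap46, Ubxn11, Gask1b and Tsnaxip1. Likeness was the root mean square difference of centred log2(CPM + 0.5) values over the 4 libraries, from 0.0621 for Erich2 to 0.0863 for Tsnaxip1. Cfap46 is itself a central apparatus gene. Erich2 had 21 and 37 counts in wild-type and 237 and 191 in Foxn3KO, and Ubxn11 had 194 and 256 against 1578 and 1220. Gask1b was the least counted of them, with 3 and 8 against 84 and 75.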
